A study of Mus musculus with 11 samples.

Results

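The genes described here encode 10 enzymes of the methionine cycle and of folate one-carbon metabolism, Mat1a, Gnmt, Ahcy, Bhmt, Bhmt2, Shmt1, Shmt2, Mthfd1, Aldh1l1 and Pemt. They were found on the array as every probe set whose platform annotation names exactly 1 of these symbols, which gave 20 of 22626 probe sets, with at least 1 for each of the 10 genes. Liver RNA was compared between 6 Gsr-null and 5 wild-type (WT) male C57BL/6J mice aged 15 to 20 weeks, harvested between 2 and 4 in the afternoon. Gsr encodes glutathione reductase, which uses NADPH to return oxidised glutathione to its reduced form, and the sources used here label the mice as null for it without naming the allele. All values are log2 expression from single-colour Affymetrix arrays, so a difference of 1 is a doubling.

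The methionine cycle turns methionine into S-adenosylmethionine, the methyl donor of the cell, and the product left after methyl transfer is split into adenosine and homocysteine. Homocysteine is either methylated back to methionine, with a methyl group from betaine or from folate, or passed through cystathionine to cysteine, a building block of glutathione. Folate carries one-carbon units, most of them taken from serine, and its dehydrogenases are among the sources of NADPH. The liver is a main site of these pathways.

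Gsr was lower in all Gsr-null samples than in the WT samples. On the brighter of its probe sets it averaged 4.99 ± 0.207 in Gsr-null livers (SD, n = 6) and 6.82 ± 0.126 in WT livers (SD, n = 5), and where its probes lie relative to the disruption was not analysed here. Samples are numbered here by the biological replicate number in their labels. The labels carry a second number, equal to it for WT samples, whereas Gsr-null samples 1 to 6 have 4 to 9 there. A control measure parted the arrays across the genotypes. The control probe sets of Gapdh and Actb give a 3' minus 5' difference, which reads RNA integrity and labelling. It was 0.572 to 0.703 in Gsr-null samples 1, 2 and 3 and 0.544 to 0.631 in WT samples 2 and 4 (the lower set). This difference was 1.199 to 1.25 in Gsr-null samples 4, 5 and 6 and 1.35 to 1.75 in WT samples 1, 3 and 5 (the higher set). The 5th percentile of the arrays was 1.79 and 1.76 in Gsr-null samples 2 and 3, above the 1.54 to 1.62 of the other Gsr-null samples and the 1.53 to 1.58 of WT samples. The 6 tested hepatocyte markers, among them Alb, averaged 13.6 to 13.8 in Gsr-null samples and 13.5 to 13.8 in WT samples, at the top of the arrays' range. The samples are whole liver, so fewer cells of a type and less RNA per cell cannot be told apart.

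Of the 10 genes, Shmt1 rose in Gsr-null livers and the other 9 did not pass the test. The test was limma's on all probe sets that exceeded 4 (log2) in 5 or more samples, with an adjusted p under 0.05 over 9560 probe sets taken as a call, and 19 of the 20 probe sets entered it. One probe set of the 19 was called, against 0.387% of all tested probe sets. By gene, with each gene read on its tested probe set of highest mean, 1 of 10 was called, against 0.432% of all tested genes, and that direction of change, higher, was called in 0.216%. At an unadjusted p under 0.05 there were 4 of the 19 probe sets, 3 of them of Shmt1, against 8.36% of all tested probe sets, and 1 of the 10 genes, against 8.78% of all tested genes. The 10 genes were chosen with the call of Shmt1 already known, so the count is a description. The median difference over the 10 genes was 0.11 on the log2 scale, against -0.03 over all 6022 tested genes, and 8 of the 10 had a positive difference, against 42.7% of all tested genes. Of these 8, the differences of Gnmt and Mthfd1 turned negative when certain single samples were left out.

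**Figure D1:**
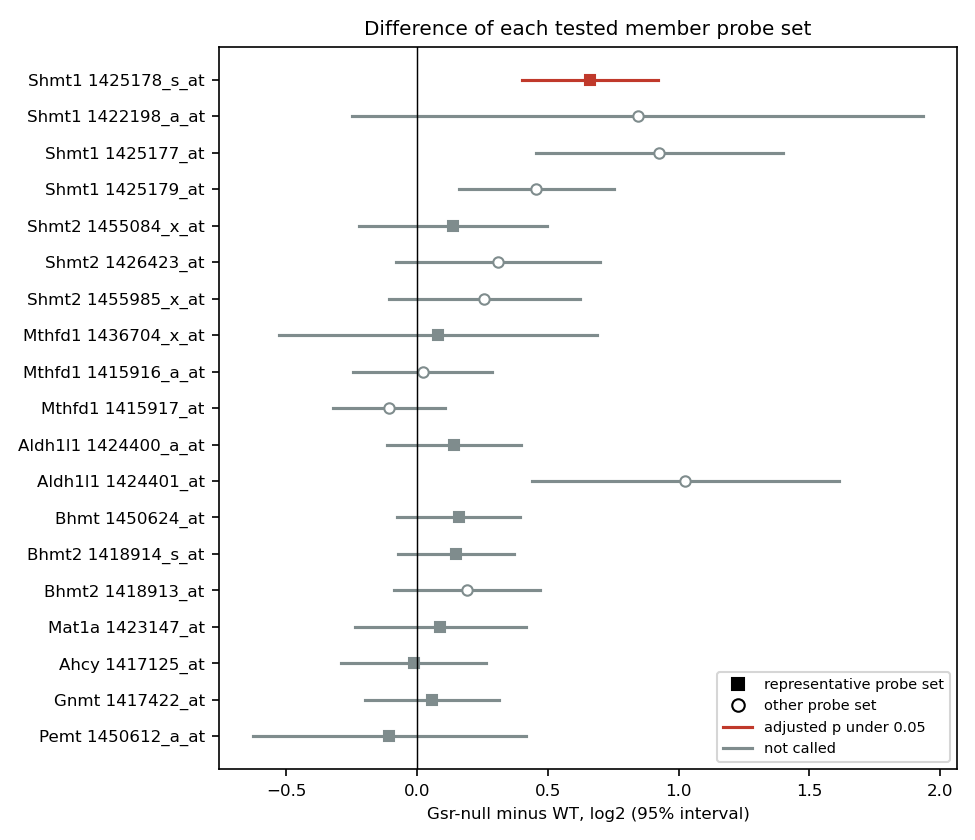
Difference in log2 expression (Gsr-null minus WT, horizontal axis) of the 19 tested probe sets, with 95% intervals from limma. Squares are the representative probe set of a gene and open circles its others. Red marks an adjusted p under 0.05, reached by Shmt1 1425178_s_at at 0.66, while the intervals of most other genes span 0.

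Shmt1 encodes the cytosolic serine hydroxymethyltransferase, which takes a one-carbon unit from serine onto tetrahydrofolate and leaves glycine, and Shmt2 encodes the mitochondrial enzyme of the same reaction. The sequences around their start sites are shown because Shmt1 is the gene that was called and Shmt2 its closest relative in function. Each runs from 250 bases before to 50 after the start of the gene on the minus strand of assembly GRCm38.p6, from RefSeq, at chr11:60811216-60811515 for Shmt1 and chr10:127522395-127522694 for Shmt2. Capitals mark a CCAAT box, here read on the opposite strand.
Shmt1 promoter: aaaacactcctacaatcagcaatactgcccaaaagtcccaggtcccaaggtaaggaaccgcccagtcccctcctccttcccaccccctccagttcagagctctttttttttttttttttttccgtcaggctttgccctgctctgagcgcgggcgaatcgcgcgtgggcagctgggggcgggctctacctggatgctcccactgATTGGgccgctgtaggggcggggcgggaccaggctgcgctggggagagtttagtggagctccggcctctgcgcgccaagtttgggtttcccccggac
Shmt2 promoter: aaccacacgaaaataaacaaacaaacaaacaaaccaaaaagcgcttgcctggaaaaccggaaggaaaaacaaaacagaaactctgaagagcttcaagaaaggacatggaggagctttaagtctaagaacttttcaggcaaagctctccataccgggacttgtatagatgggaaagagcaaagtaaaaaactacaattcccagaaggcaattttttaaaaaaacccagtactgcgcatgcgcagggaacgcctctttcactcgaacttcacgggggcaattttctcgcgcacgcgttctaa

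These letters were searched for on either strand: CCAAT, the E-box CACGTG, and TGACNNNGC, the core of the antioxidant response element bound by NRF2. The Shmt1 window held 1 CCAAT and neither of the other motifs, and no motif overlapped another. The Shmt2 window held none of the 3. Over 32851 mouse promoter windows of the same length, 37.4% held CCAAT, 7.15% CACGTG and 12.4% TGACNNNGC. Of the 10 genes, 9 had a window in the table, and those of Ahcy, Aldh1l1, Bhmt, Gnmt, Mthfd1 and Shmt1 and 1 of the 2 windows of Pemt held CCAAT. None of the 10 windows of these 9 genes held CACGTG or TGACNNNGC. A match is a run of letters and not a binding site.

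Shmt1 was measured by 4 probe sets, and all 4 had a positive difference. On 1425178_s_at, the representative one, Gsr-null samples ranged from 9.996 to 10.48 with a median of 10.33, and the WT samples were 9.70, 9.52, 9.76, 9.53 and 9.48. The lowest Gsr-null value exceeded the highest WT value, a separation seen in this direction in 0.575% of all tested probe sets. The means were 10.26 ± 0.19 in Gsr-null livers (SD, n = 6) and 9.60 ± 0.126 in WT livers (SD, n = 5). Shmt1 rose by 0.66 on this probe set (SE 0.119, limma adjusted p = 0.0373), a 1.58-fold higher level with a 95% interval of 1.32 to 1.89. The suffix of this probe set marks that its probes can match more than 1 transcript.

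A second probe set, 1425177_at, also parted the genotypes. It ranged from 9.003 to 9.98 with a median of 9.64 in Gsr-null samples and was 8.29, 8.99, 8.81, 8.20 and 8.74 in WT samples. The lowest Gsr-null value, in sample 1, lay just above the highest WT value, in sample 2. The difference of 0.93 was the largest of the 4 probe sets, but with a wider spread it did not pass the test (SE 0.217, limma adjusted p = 0.146).

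On 1425179_at, 4 of 6 Gsr-null samples lay above all WT samples. The Gsr-null values ran from 8.54 to 9.07 with a median of 8.96, and the WT values were 8.16, 8.60, 8.37, 8.36 and 8.54. Gsr-null samples 1 and 6 fell within the WT range, and the difference of 0.46 did not pass (SE 0.137, limma adjusted p = 0.284). Samples 1 and 6 were also the lowest of the Gsr-null samples on 1425177_at, whereas on 1425178_s_at sample 6 was in the upper part of the Gsr-null range.

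The fourth Shmt1 probe set, 1422198_a_at, followed the array sets more than the genotype. Its Gsr-null values ran from 4.77 to 7.17 with a median of 6.37, and its WT values were 4.36, 6.77, 4.47, 6.31 and 5.09. The WT samples above 6 are those of the lower 3' minus 5' set, and the lowest Gsr-null sample, number 6, belongs to the higher set. With genotype as a term, samples of the higher set lay below those of the lower set (difference -1.44, SE 0.299, limma adjusted p = 0.0163), on a comparison that called 6.37% of all tested probe sets. The genotypes differed by 0.84 on it (SE 0.502, limma adjusted p = 0.768).

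**Figure D2:**
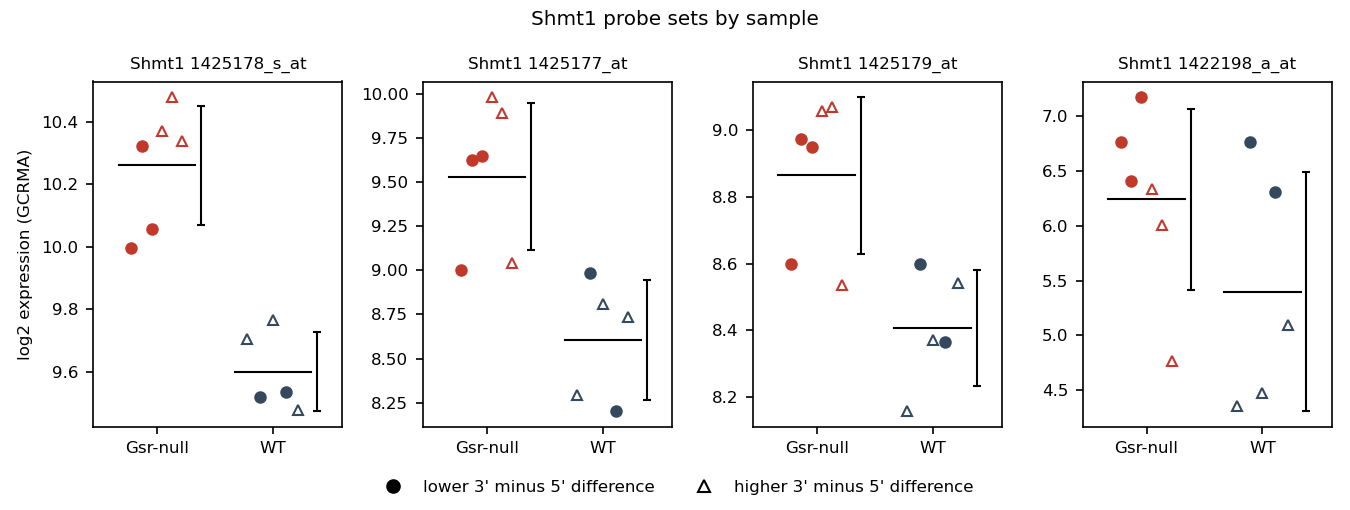
Log2 expression (vertical axis, a separate scale in each panel) of Shmt1 on its 4 probe sets in 6 Gsr-null and 5 WT livers. Each point is 1 liver, lines are group means, bars are SD, and filled circles and open triangles mark the lower and higher array sets. The genotypes do not overlap on 1425178_s_at and 1425177_at, and on 1422198_a_at the filled WT points lie above the open ones.

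The size of the Shmt1 difference varied little with the samples used, but its call did. On 1425178_s_at the difference lay between 0.62 and 0.71 over 21 refits, and 9 of these kept the call. The call was lost when any 1 of the 5 WT samples, or 1 of Gsr-null samples 2, 4, 5 and 6, was left out, with adjusted p values of 0.0283 to 0.13 over the 11 fits that leave out 1 sample. Without Gsr-null samples 2 and 3, whose arrays had the higher floor, the difference was 0.70 (limma adjusted p = 0.126). Averaging the 4 probe sets gave a difference of 0.72 for Shmt1 (SE 0.177, limma adjusted p = 0.144), which did not pass. Within the lower array set the difference was 0.60 and within the higher set 0.75, and with the set as a block it was 0.68 (limma adjusted p = 0.0149). The difference between these 2 within-set values was 0.15 (SE 0.212, limma adjusted p = 0.834).

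**Figure D3:**
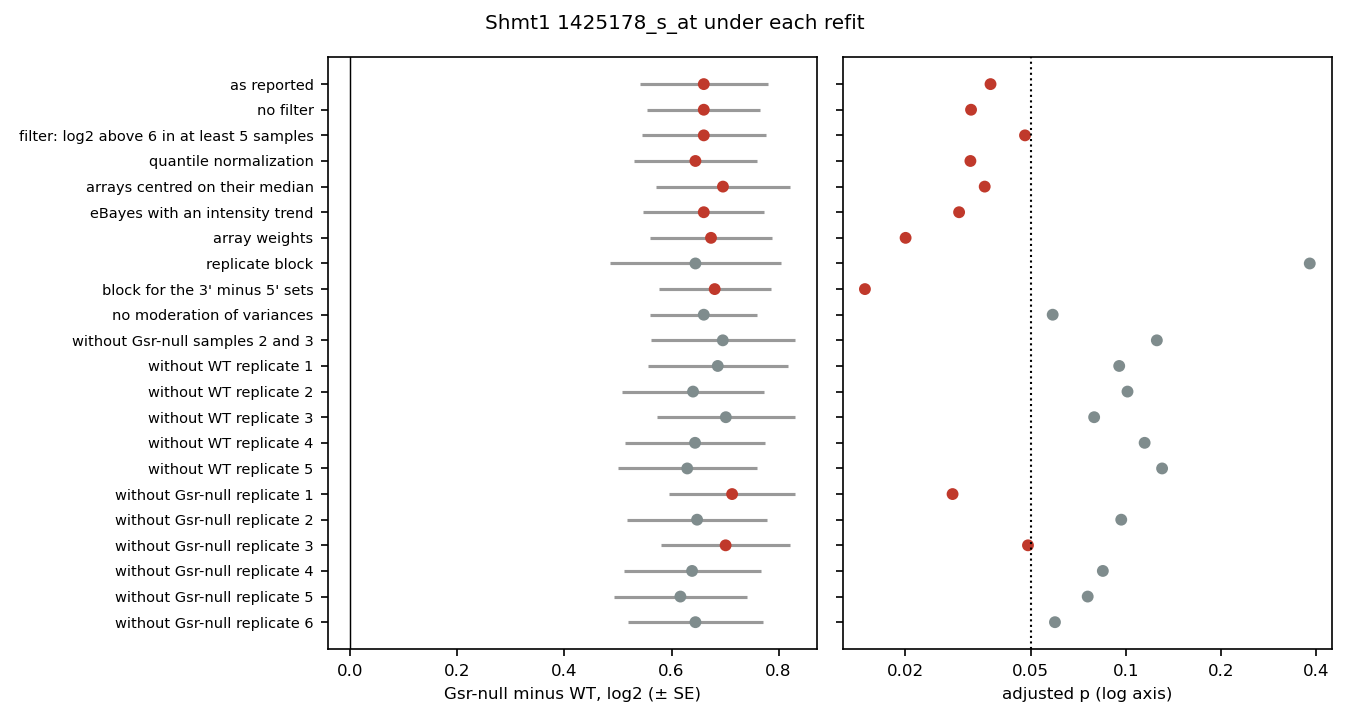
Shmt1 probe set 1425178_s_at under each refit. Left, Gsr-null minus WT in log2 with its SE; right, the adjusted p on a log axis, with a dotted line at 0.05. Red marks the fits with a call. The differences stay between 0.62 and 0.71 while the adjusted p lies between 0.0149 and 0.383.

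Shmt2 did not pass the test on any of its 3 tested probe sets. The representative one, 1455084_x_at, ran from 9.52 to 9.995 with a median of 9.86 in Gsr-null samples and was 9.92, 9.29, 9.85, 9.27 and 10.004 in WT samples. No Gsr-null sample lay above all WT samples. The difference was 0.14 (SE 0.165, 95% interval -0.22 to 0.50, limma adjusted p = 0.951), and whether it differs from that of Shmt1 was not tested.

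WT samples 2 and 4, the lowest on that probe set, were those of the lower 3' minus 5' set, and the higher set stood above the lower by 0.44 (SE 0.107, limma adjusted p = 0.0321). This and Shmt1 1422198_a_at were the 2 of 19 probe sets called between the array sets, and they moved in opposite directions. The probe sets 1426423_at and 1455985_x_at of Shmt2 differed between the genotypes by 0.31 and 0.26. Their intervals were -0.08 to 0.70 and -0.11 to 0.62, and neither passed the test (limma adjusted p = 0.749 and 0.806). The last Shmt2 probe set, 1434204_x_at, stayed below the level of 4 in every sample and was not tested, at 3.58 ± 0.19 in Gsr-null livers (SD, n = 6) and 3.48 ± 0.206 in WT livers (SD, n = 5).

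Mthfd1 encodes the cytosolic enzyme that interconverts the folate-bound one-carbon units at the level of formate, methenyl and methylene groups. Its 3 probe sets differed by 0.08, 0.02 and -0.11, and none passed. The tightest, 1415917_at, ran from 8.75 to 9.03 with a median of 8.80 in Gsr-null samples and was 8.78, 8.97, 8.999, 9.03 and 8.95 in WT samples. Its interval of -0.32 to 0.11 leaves room for only small changes on this probe set (limma adjusted p = 0.931). The representative 1436704_x_at was the most uneven, from 8.72 in Gsr-null sample 3 to 10.26 in Gsr-null sample 6, with an interval of -0.53 to 0.69. Its difference of 0.08 was -0.08 without Gsr-null sample 6, -0.03 without WT sample 2 and -0.04 without WT sample 5. The SD of Gsr-null samples was 0.555 on it, against 0.186 on 1415916_a_at and 0.104 on 1415917_at. The gene counts, pairs and closest gene given for Mthfd1 rest on 1436704_x_at.

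Aldh1l1 encodes 10-formyltetrahydrofolate dehydrogenase, which releases the one-carbon unit as carbon dioxide while making NADPH. On its bright probe set, 1424400_a_at, Gsr-null samples ran from 12.16 to 12.52 with a median of 12.23, and WT samples were 11.89, 12.36, 12.20, 12.21 and 11.96. The groups overlapped, and the difference of 0.14 did not pass (SE 0.118, limma adjusted p = 0.898). The dim probe set, 1424401_at, did part the genotypes, from 4.59 to 6.17 with a median of 4.78 in Gsr-null samples against 3.66, 4.11, 4.05, 3.97 and 4.39 in WT samples.

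That separation was 1 of 3 among the 19 probe sets, the other two being those of Shmt1, against 1.36% of all tested probe sets in either direction. The difference on the dim Aldh1l1 probe set was 1.03, the largest of the 19, and did not pass (SE 0.27, limma adjusted p = 0.198). WT samples 1 and 4, at 3.66 and 3.97, lay below the filter level of 4, while all Gsr-null samples lay above it. The WT samples alone would not have passed the filter, so the separation on this probe set is a description. Its highest value came from Gsr-null sample 3, 1 of the 2 arrays with the higher floor. Gsr-null sample 2, the other, was 4.68, below Gsr-null samples 1 and 4 at 4.87 and 5.405. Without Gsr-null sample 3 the difference was 0.80 (limma adjusted p = 0.165). Without Gsr-null samples 2 and 3 it was 0.85 (limma adjusted p = 0.239), and the part of the higher floor was not tested. The bright and dim probe sets thus gave differences of unlike size for the same gene.

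Bhmt encodes betaine-homocysteine methyltransferase, which rebuilds methionine with a methyl group from betaine, and Bhmt2 a relative that uses S-methylmethionine. Bhmt ran from 13.71 to 14.01 with a median of 13.87 in Gsr-null samples and was 13.65, 13.76, 13.82, 13.87 and 13.49 in WT samples. In 3 of 6 Gsr-null samples it exceeded all WT samples, but the difference of 0.16 did not pass (SE 0.108, limma adjusted p = 0.831). The interval, in folds, was 0.949 to 1.31.

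Bhmt2 had 2 probe sets with differences of 0.15 and 0.19, neither past the test. On 1418914_s_at the Gsr-null samples were tightly grouped, from 11.42 to 11.55 with a median of 11.49, and the WT samples were 11.37, 11.36, 11.40, 11.50 and 11.07. The limma adjusted p was 0.831, and the exact two-sided permutation test over the samples gave p = 0.0238 without adjustment. This was the 1 of 19 probe sets for which the permutation test and limma's unadjusted p fell on opposite sides of 0.05. The WT mean rests in part on WT sample 5, the lowest.

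Mat1a encodes the liver's methionine adenosyltransferase, which makes S-adenosylmethionine. It ran from 12.34 to 12.90 with a median of 12.44 in Gsr-null samples and was 12.34, 12.74, 12.20, 12.66 and 12.41 in WT samples. Gsr-null samples 4 and 5 were the highest of all 11, and the genotypes differed by 0.09 (SE 0.151, limma adjusted p = 0.978), with an interval of 0.847 to 1.34 in folds.

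That near-equal mean covered opposite differences in the 2 array sets. Within the lower set Mat1a was 12.34, 12.37 and 12.39 in Gsr-null samples against 12.74 and 12.66 in WT samples, a difference of -0.33. Within the higher set it was 12.87, 12.90 and 12.48 in Gsr-null samples against 12.34, 12.20 and 12.41 in WT samples, a difference of 0.43. The genotypes did not overlap in either set, in opposite directions, which held for 1.96% of all tested probe sets. The test of the difference between the sets gave 0.76 (SE 0.218), with an unadjusted p = 0.00537 and a limma adjusted p = 0.284. Mat1a was the 1 member probe set of 19 at an unadjusted p under 0.05 in that test, against 11.3% of all tested probe sets. After adjustment limma called 0 of the 9560.

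Ahcy encodes S-adenosylhomocysteine hydrolase, which clears the product that is left after methyl transfer. It ran from 12.14 to 12.72 with a median of 12.37 in Gsr-null samples and was 12.17, 12.55, 12.53, 12.28 and 12.50 in WT samples. The means differed by -0.01 (SE 0.128, limma adjusted p = 0.999), and the interval in folds was 0.817 to 1.20. The sign of so small a difference turned in 8 of 21 refits of Ahcy, which ran from -0.08 to 0.04.

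Gnmt encodes glycine N-methyltransferase, an abundant liver enzyme that uses up S-adenosylmethionine by methylating glycine. It ran from 12.66 to 13.004 with a median of 12.96 in Gsr-null samples and was 12.50, 12.92, 12.91, 12.91 and 12.92 in WT samples. In 4 of 6 Gsr-null samples Gnmt lay above all WT samples by a small margin, and the difference was 0.06 (SE 0.118, limma adjusted p = 0.983). That direction rests on WT sample 1, the lowest, without which the difference of Gnmt was -0.02 (limma adjusted p = 0.995).

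Pemt encodes the methyltransferase that makes phosphatidylcholine from phosphatidylethanolamine, another large user of S-adenosylmethionine in liver. It ran from 8.72 to 10.23 with a median of 9.80 in Gsr-null samples and was 9.40, 10.12, 9.54, 10.02 and 9.92 in WT samples. Gsr-null sample 6 held the lowest value, with the next at 9.73, and on its array 9094 probe sets exceeded the level of 4, against 9459 to 9551 on the other Gsr-null arrays and 9377 to 9603 on WT arrays. The difference was -0.11 (SE 0.24, limma adjusted p = 0.99). Without Gsr-null sample 6 the difference of Pemt turned to 0.09 (limma adjusted p = 0.935).

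**Figure D4:**
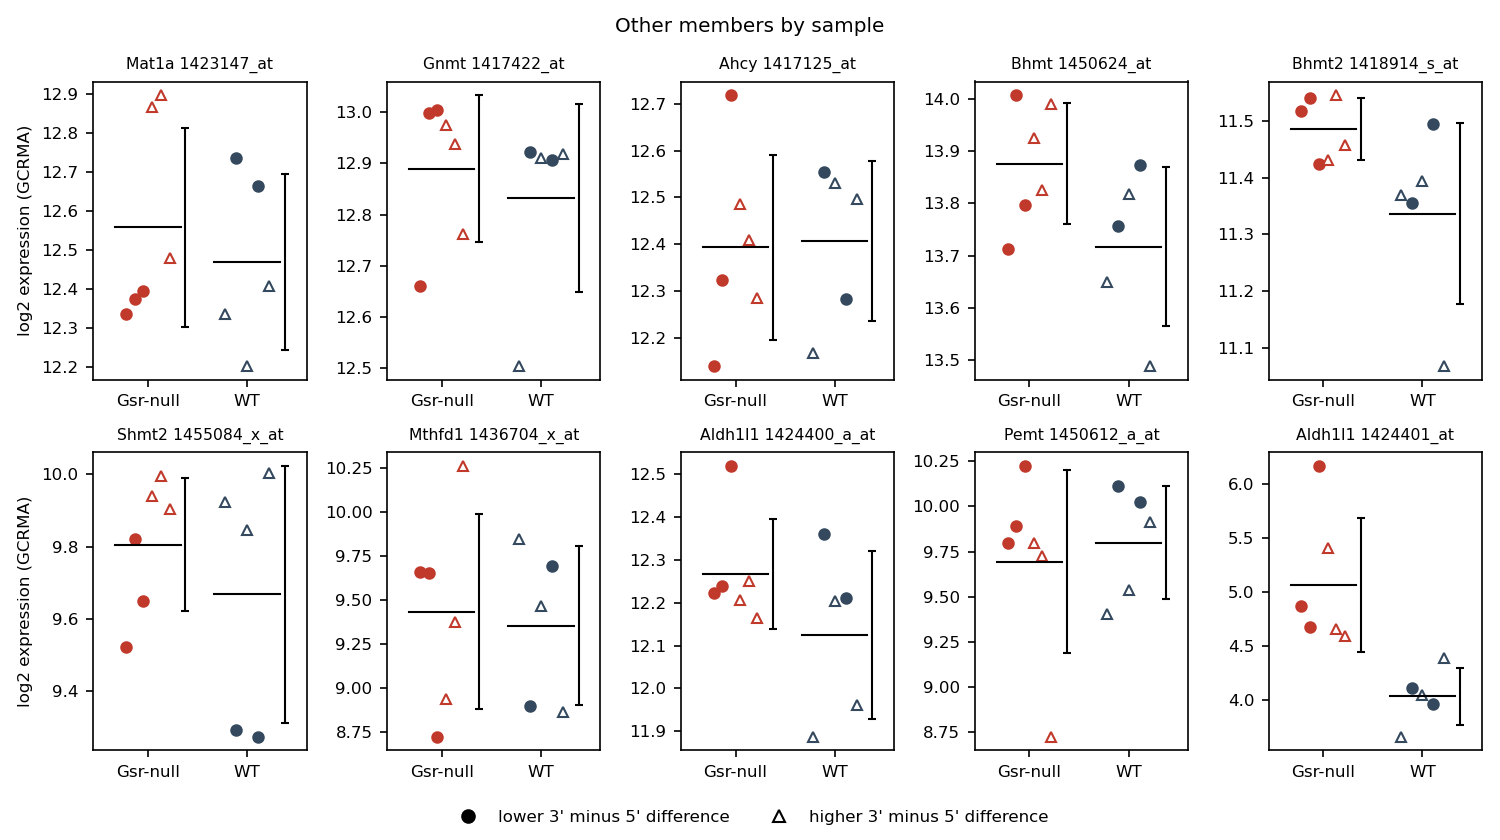
Log2 expression (vertical axis, a separate scale in each panel) of the other 9 genes on their representative probe sets and of the dim Aldh1l1 probe set, in 6 Gsr-null and 5 WT livers. Points are livers, lines are means, bars are SD, and filled circles and open triangles mark the lower and higher 3' minus 5' sets. The genotypes overlap in all panels but that of Aldh1l1 1424401_at, and those of Mat1a show the filled and open points in opposite order in the 2 genotypes.

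Between animals of 1 genotype, no pair of the genes varied together or in opposite order past the adjusted threshold. Over the 45 pairs of representative probe sets, deviations from the genotype means of the 11 samples were compared by permutation within genotype. After Benjamini-Hochberg adjustment 0 pairs passed, with 5 at an unadjusted p under 0.05. The share of such pairs among other genes of these arrays was not measured, so the pairs below are a description. Gnmt and Ahcy had the smallest p by Pearson's r, with r of 0.77 (permutation p = 0.00155, adjusted p = 0.0698) and Spearman's rho of 0.782 (permutation p = 0.00769, adjusted p = 0.143). Without the 2 samples farthest from the median of Gnmt, r was 0.508, and with deviations from the means of genotype and array set it was 0.797. Ahcy and Mthfd1, read on 1436704_x_at, ran in opposite order. This pair had the smallest p by Spearman's rho, -0.818 (permutation p = 0.00604, adjusted p = 0.143). Its Pearson's r was -0.808 (permutation p = 0.0071, adjusted p = 0.16). Without the 2 farthest samples r of that pair was -0.803. Gsr-null samples 3 and 6 were 8.72 and 10.26 on 1436704_x_at but 9.32 and 9.05 on Mthfd1 1415916_a_at. On 1415916_a_at, Gsr-null sample 1 and WT sample 1 were the lowest of their genotypes, at 8.935 and 8.928. They were also the lowest of their genotypes for Ahcy, at 12.14 and 12.17, so the opposite order was not seen in these samples there. Pairs on the other Mthfd1 probe sets were not tested, so the opposite order is given for 1436704_x_at only. On the same Mthfd1 probe set, Mthfd1 and Pemt gave r = -0.766 (permutation p = 0.012, adjusted p = 0.18). Their rho was -0.574 (permutation p = 0.0806, adjusted p = 0.392), and r was -0.471 without the 2 farthest samples. For Ahcy and Aldh1l1 r was 0.654 (permutation p = 0.0328, adjusted p = 0.301) and rho 0.555 (permutation p = 0.105, adjusted p = 0.392). Their r was 0.537 without the 2 farthest samples and 0.859 with the array set also removed. Shmt1 and Shmt2, read on 1425178_s_at and 1455084_x_at, gave r = 0.595 (permutation p = 0.0443, adjusted p = 0.301). Their rho was 0.5 (permutation p = 0.1, adjusted p = 0.392). Their r was 0.46 without the 2 farthest samples and 0.399 with the array set also removed. Gsr-null sample 6 and WT sample 1 were 9.90 and 9.92 on 1455084_x_at. On Shmt2 1426423_at they were the lowest of their genotypes, at 8.01 and 7.75. Pairs on the other Shmt2 probe sets were not tested, so this pair is given for 1455084_x_at only.

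Among the 6012 other tested genes, the one whose levels followed Shmt1 most closely over the 11 samples was Dnph1, at Pearson's r of 0.934 and Spearman's rho of 0.916. Dnph1, a deoxynucleotide hydrolase, was itself 0.67 higher in Gsr-null livers without passing the test (limma adjusted p = 0.086). The closest gene was Tmem243 for Shmt2, Btf3 for Mthfd1, Acox2 for Aldh1l1, Obp2a for Bhmt, Insig2 for Bhmt2, Rdh16 for Mat1a, Acd for Ahcy, Ecsit for Gnmt and Dcn for Pemt. Their r lay between 0.832, for Obp2a, and 0.984, for Btf3. Each is the best of 6012 candidates on the same arrays, so these values are a description. They hold for the representative probe sets only, among them 1455084_x_at for Shmt2 and 1436704_x_at for Mthfd1. The other probe sets of the genes were not searched.

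In the wider pathways 0 of 36 tested genes were called by limma, against 0.432% of all tested genes, and 0 without moderation of the variances. At an unadjusted p under 0.05 there were 5 of the 36, against 8.78% of all tested genes. The median difference of the 36 was -0.00447, and 17 of them were positive, against 42.7% of all tested genes. The lists held other genes of the methionine cycle and methyl transfer (9 tested of 13 listed), choline and betaine use (11 of 13), folate (7 of 19), serine and glycine (7 of 16) and transsulfuration (2 of 2). The medians of these 5 lists were -0.000322, -0.05, 0.05, 0.13 and 0.11, in that order.

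Gldc, the glycine-cleaving subunit of the mitochondrial glycine cleavage system, came closest to a call. It ran from 9.11 to 10.29 with a median of 9.57 in Gsr-null samples and was 8.06, 9.07, 8.66, 9.004 and 8.49 in WT samples. The groups did not overlap, and the difference of 0.94 did not pass (SE 0.229, limma adjusted p = 0.16). Fpgs, which adds the glutamate tail that keeps folate in the cell, differed by 0.78 (SE 0.27, limma adjusted p = 0.392). Gsr-null samples 2 and 3 held its highest values, 8.66 and 8.98, and the other 4 ran from 7.57 to 7.94.

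Of the remaining lists, the gene with the smallest p was Ahcyl2, a relative of Ahcy, at 0.66 (SE 0.246, limma adjusted p = 0.459). Gsr-null samples 2 and 3 were again its highest, at 7.39 and 7.29, and the part of the higher floor of these arrays in either gene was not tested. Cth, the cystathionine gamma-lyase of transsulfuration, differed by 0.41 (SE 0.18, limma adjusted p = 0.562), and Slc44a1, a choline transporter, by 0.21 (SE 0.183, limma adjusted p = 0.909).

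**Figure D5:**
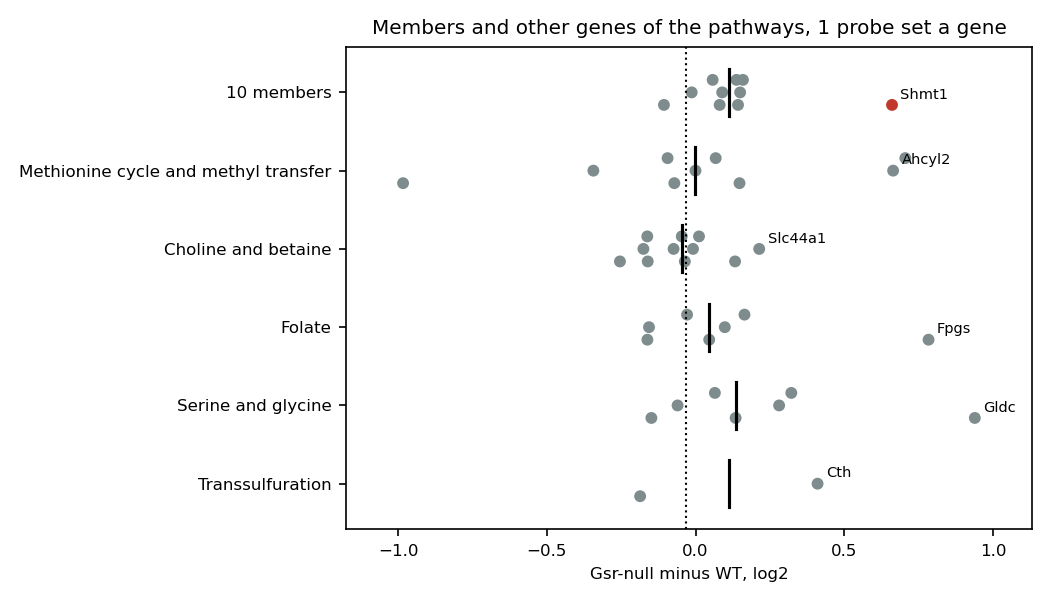
Difference in log2 expression (Gsr-null minus WT, horizontal axis) of the 10 genes and of the tested genes of 5 pathway lists, 1 representative probe set a gene. Short black lines are list medians, the dotted line is the median of all 6022 tested genes, red marks an adjusted p under 0.05, and names mark the smallest p of a row. Shmt1 is the red point at 0.66, and Gldc at 0.94 lies farthest right.

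Shmt1 and Pemt lie on the same stretch of chromosome 11, with 6 measured genes between them in the RefSeq order of GRCm38.p6. Of the 10 measured genes on each side of Shmt1, limma called 0 of 20, and 0 without moderation. At an unadjusted p under 0.05 there were 3 of the 20, against 8.78% of all tested genes. The median difference of the 20 was -0.12. Flii, the gene next to Shmt1 in that order, differed by -0.43 (SE 0.112, limma adjusted p = 0.198), in the opposite direction to Shmt1.

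Among the markers of hepatocyte zones, the 5 tested periportal genes averaged 11.97 to 12.27 in Gsr-null samples and 11.86 to 12.19 in WT samples, with 0 called and 0 at an unadjusted p under 0.05. The 5 tested pericentral genes averaged 10.36 to 11.02 in Gsr-null samples and 9.91 to 10.57 in WT samples. Rhbg, an ammonium transporter, was the 1 of these called, at 1.40 higher (SE 0.229, limma adjusted p = 0.0252). The share called among all tested genes was 0.432%, and 0 of the 5 were called without moderation. Rhbg ran from 5.13 to 6.13 in Gsr-null samples and from 3.61 to 4.54, near the filter level, in WT samples. WT samples 1 and 3, at 3.61 and 3.998, lay below that level of 4. The WT samples alone would thus not have passed the filter. Slc1a2, Lgr5 and Axin2, also listed as pericentral, did not pass the filter and were not tested, at differences of -0.43, 0.02 and 0.002. The other 4 tested pericentral genes were not called, with differences of 0.19 for Glul, 0.05 for Cyp2e1, -0.25 for Cyp1a2 and 0.17 for Oat. Markers of other cell types gave 0 calls by limma, with 2 at an unadjusted p under 0.05, Fcgr2b and Col1a2. That level was reached by 8.78% of all tested genes. Averages were 6.69 to 7.96 in Gsr-null samples and 7.04 to 7.78 in WT samples for 6 Kupffer cell markers, and 6.04 to 7.27 in Gsr-null samples and 6.44 to 7.08 in WT samples for 5 endothelial markers. The 4 stellate cell markers averaged 6.86 to 8.39 in Gsr-null samples and 7.34 to 7.71 in WT samples. No listed cholangiocyte or neutrophil marker passed the filter. The part of these markers in the Shmt1 difference was not tested.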

How the data were processed

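Liver RNA of 6 Gsr-null and 5 WT mice, biological replicates by their labels, was measured on 1 array each, and the number of arrays limits the precision. The deposited values are read as log2 from their range. The authors used GCRMA, named in the submitters' processing notes, which takes the background from the probes' base content and brings arrays to a common distribution, so that low values lie near a floor and levels of different probe sets cannot be compared. Its version, filters and batches are not given.

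Probe sets above 4 in 5 or more samples, 9560 of 22626, were fitted with limma 3.58.1 (lmFit, eBayes) in R 4.3.3 and adjusted by Benjamini-Hochberg. The platform annotation gave 1 gene symbol to 20380 probe sets, several to 691 and none to 1555, and 64 controls were left out. RefSeq (GRCm38.p6) held the Entrez identifier of 20351. In simulated data for Gsr-null against WT over 9560 probe sets, 100 were shifted by 1 and 100 by 2 (log2). The fit recovered 68% of those shifted by 1 and 97% of those shifted by 2, and 6.78% of its calls were not among them. The simulated noise was independent between probe sets and left out the array sets, and the data themselves gave 37 calls. No shift below 1 was planted, so recovery at the smaller differences of most members was not measured.

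Named are the 10 enzymes, Gsr, of each pathway list the called genes or else that of smallest p, the gene of closest pattern and called neighbours. Flii, the pericentral genes, Fcgr2b, Col1a2 and the motifs were added after values were seen. The enzymes and lists were chosen with earlier results of these data known. The replicate numbers gave no pairing, since WT and Gsr-null samples of 1 number had deviations that correlated at -0.173, 0.036, -0.056, -0.243 and -0.171. Figures used matplotlib 3.10.9.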

Additional observations from a re-analysis of the deposited data

Results flagged for a closer look

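In 3 of 44 groups of values, where chance would give 2.2, 1 sample stood far from the others of its genotype. Aldh1l1 1424400_a_at was 12.52 in Gsr-null sample 3, while the rest of that genotype ran from 12.16 to 12.25. Pemt was 8.72 in Gsr-null sample 6, against 9.73 to 10.23. Gnmt was 12.5 in WT sample 1, against 12.91 to 12.92. Mat1a differed in opposite directions between the genotypes in the 2 array sets, by -0.33 in the lower and by 0.43 in the higher 3' minus 5' set, with no overlap of the genotypes in either. The test of that difference gave a limma adjusted p = 0.284.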

How the results depend on the processing

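All alternatives were listed in advance, with earlier results known. Of 398 refits of the 19 probe sets, 386 kept their side of the threshold and 12, all of Shmt1 1425178_s_at, lost the call, at differences of 0.62 to 0.70. The direction turned in at least 1 refit for 5 of the 19 probe sets, none of them called, those of Gnmt, Ahcy and Pemt and 2 of Mthfd1. The calls, 37 probe sets in all with 16 higher and 21 lower, became 14 with 7 higher and 7 lower at a filter of 6, where fewer probe sets are tested, 10 with 6 and 4 without moderation, and 10 with 6 and 4 without Gsr-null samples 2 and 3. Leaving out 1 sample gave 14 to 42 probe sets, 9 to 24 higher and 5 to 19 lower, and 0 to 1 member probe set or gene. The 1 member probe set and gene called became 0 without moderation (limma unmoderated adjusted p = 0.0587), without Gsr-null samples 2 and 3, and, for the gene, 0 with the mean of its probe sets. With the replicate block, 3 probe sets were called, 2 higher and 1 lower, and 0 members, while 0 of 5 WT samples had their best correlation with the Gsr-null sample of equal number. The cause of these changes in the calls was not tested. Signals near the floor limit what Shmt2 1434204_x_at and Aldh1l1 1424401_at can show.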
